A study of Mus musculus with 10 samples.

Results

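The genes described here make fatty acids, cholesterol and the oily secretion of sebaceous glands. They are 33 mouse genes taken by symbol from 41388 genes in each deposited count file, in a fatty acid synthesis arm of 12 genes, a sterol synthesis arm of 12 and a sebocyte and neutral lipid arm of 9. They were measured by RNA sequencing of whole ear skin from C57Bl/6 mice in 4 libraries labelled Littermate and 6 labelled Experimental. The Littermates carry the genotype label WT. The series text describes the other 6 mice as NaV1.8+ Il4raF/F, whereas each Experimental library carries the genotype label NaV1.8+ Jak1F/F, so which floxed gene these mice carried cannot be told from the labels. The ears of both groups were treated with MC903, also called calcipotriol, a relative of vitamin D used to produce dermatitis-like inflammation in mouse skin. No group without MC903 was analysed here. The dose given for the littermates was 1 nM daily for 12 days. NaV1.8, encoded by Scn10a, is a sodium channel of sensory neurons whose cell bodies lie in ganglia outside the ear, so a deletion limited to those neurons would leave skin cells unrecombined. The age and sex of the mice, and any batch, were not given in the sources used here. Nothing in the labels states that each library came from a separate mouse, beyond the 6 and 4 animals named in the series text, so p-values measure the spread between these libraries.

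Total counts were between 11520348 and 41935183 per library, and the 2 deepest libraries were both Experimental. A count of 3 in a library equals 0.0715 to 0.260 CPM, the count scaled to the library total, below the level of every member in every library. The tissue label was checked on keratinocyte genes, and Krt14 was at 16829 ± 1782 CPM (SD) over 4 Littermates and 16867 ± 2538 CPM (SD) over 6 Experimental libraries. Il4ra was at 217 ± 23.5 and 189 ± 46.9 CPM in the same order, and Jak1 at 310 ± 25.4 and 298 ± 18.5 CPM, with edgeR adjusted p-values of 0.678 and 0.815. Scn10a had 2 counts over all 10 libraries, so this whole-skin measurement does not check the genotype in either direction.

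Fatty acid and cholesterol synthesis share their starting material, acetyl-CoA, and their main regulators. SREBP-1 (Srebf1) mainly drives genes of fatty acid synthesis and SREBP-2 (Srebf2) those of cholesterol synthesis and uptake, and INSIG proteins hold both precursors in the endoplasmic reticulum when sterols are plentiful. In skin, keratinocytes use cholesterol, fatty acids and ceramides to build the permeability barrier, while sebocytes fill with triglycerides, wax esters and cholesterol esters and burst to release them as sebum. Adipocytes under the dermis express many of the same fatty acid genes.

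None of the 33 genes passed an adjusted p of 0.05 between Experimental and Littermate skin in edgeR's quasi-likelihood test, in which 3 of 16830 genes (0.0178%) passed. DESeq2 and limma-voom also called 0 of the 33. At an unadjusted p under 0.05, 7 members were higher in Experimental libraries, all of them sterol genes, where 3.65% of all genes were higher. Another 2 members were lower, both of the fatty acid arm, where 8.10% of all genes were lower. In no member did all 6 Experimental libraries lie above or below all 4 Littermates, a separation seen upward in 0.761% and downward in 1.35% of all genes. The median log2 fold change was 0.21 over the 12 sterol genes, 0.19 over the 9 sebocyte genes and -0.08 over the 12 fatty acid genes, against 0.00 over all genes. These medians describe the 3 arms and carry no test. In whole skin, fewer cells of a type and less RNA per cell cannot be told apart.

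**Figure D1:**
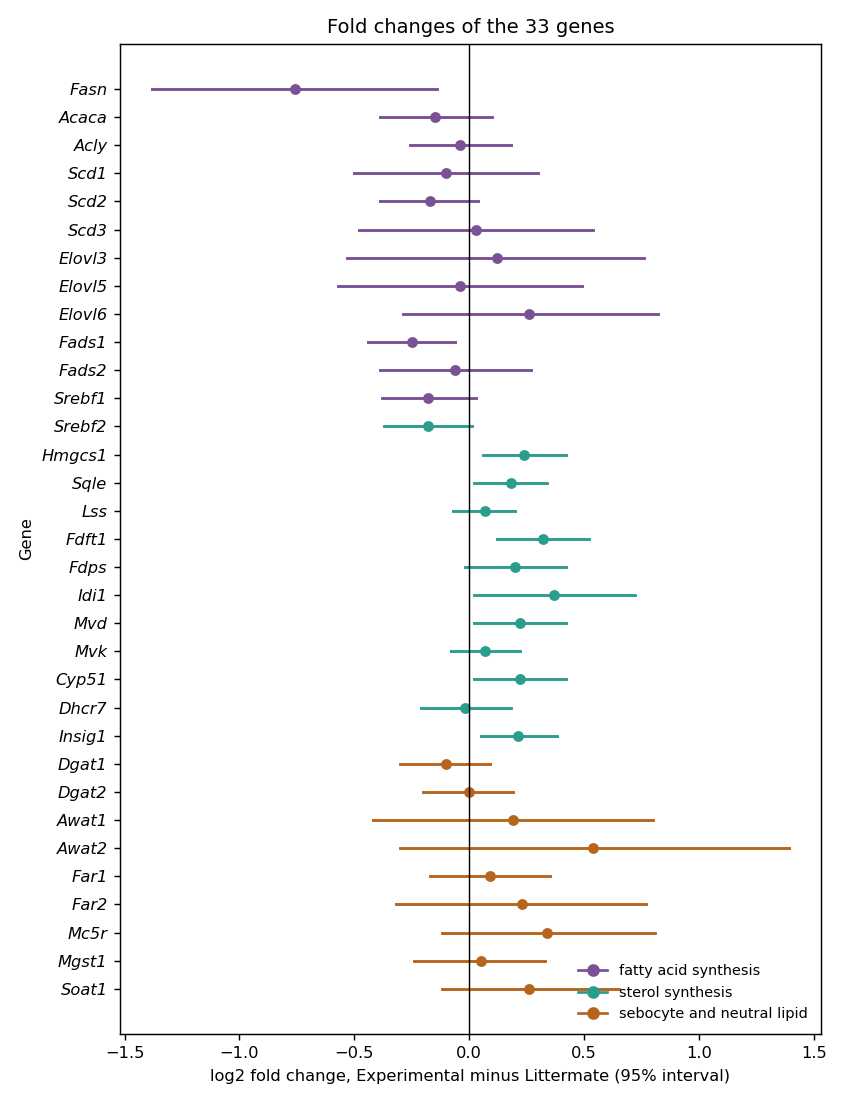
Log2 fold change, Experimental against Littermate, of each of the 33 genes (points) with its 95% confidence interval (bars), by arm. In the sterol arm 10 of 12 points lie above 0, in the sebocyte arm 7 of 9 and in the fatty acid arm 3 of 12, and no gene passed the adjusted threshold.

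The sterol arm begins with Hmgcs1, the cytosolic HMG-CoA synthase that commits acetyl units to the mevalonate pathway (chromosome 13, 119690462 to 119708086, mm10). Its normalized level was 354, 393, 404 and 372 CPM in Littermates 1 to 4, and 399, 442 and 516 CPM at the lowest, median and highest Experimental library. Of the 6 Experimental libraries 5 lay above every Littermate, and the lowest fell between Littermates 2 and 3. The log2 fold change was 0.24 (SE 0.08, 95% interval 0.06 to 0.42, edgeR adjusted p = 0.297).

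The lowest p in the arm belonged to Fdft1, squalene synthase, the first enzyme committed to sterols (chromosome 14, 63145153 to 63177793). Littermates stood at 85.5, 100, 91.9 and 75.3 CPM, and the Experimental libraries ran from 94.7 through a median of 109 to 128 CPM. Again 5 of 6 Experimental libraries were above all Littermates. The log2 fold change was 0.32 (SE 0.09, 95% interval 0.12 to 0.52), and the edgeR adjusted p of 0.203 missed the threshold. On the other strand Ctsb, a lysosomal protease gene, covers 26.8% of the exon bases of Fdft1, and the library protocol describes no step that marks strand. Ctsb itself was at 961 ± 66.5 CPM (SD) over 4 Littermates and 935 ± 137 CPM (SD) over 6 Experimental libraries, with log2 fold change -0.04.

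Insig1, the sterol-sensing retention protein and itself a classical SREBP target, was at 59.1, 70.5, 69.3 and 63.0 CPM in Littermates and at 68.1, 75.7 and 83.3 CPM at the lowest, median and highest Experimental library. All 6 Experimental libraries were above the Littermate mean and 5 above every Littermate. Its log2 fold change was 0.21 (SE 0.08, 95% interval 0.05 to 0.38, edgeR adjusted p = 0.289).

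The other 4 sterol genes below an unadjusted p of 0.05 act before and after squalene. Mvd, which decarboxylates mevalonate diphosphate, was at 51.3 ± 4.77 CPM (SD) over 4 Littermates and 59.6 ± 6.74 CPM (SD) over 6 Experimental libraries, with log2 fold change 0.22. Idi1, the isopentenyl diphosphate isomerase, stood at 3.70 ± 0.729 and 4.75 ± 0.718 CPM, with an interval from 0.02 to 0.72 around a log2 fold change of 0.37. Per length it was the least abundant gene of the arm, at a mean of 1.24 RPKM, and 25.3% of its 50-base windows also occur in other annotated transcripts. Sqle, squalene epoxidase, stood at 185 ± 7.40 and 210 ± 17.2 CPM, a log2 fold change of 0.18. Cyp51, the lanosterol demethylase, was at 290.2 ± 28.2 and 338 ± 36.4 CPM, a log2 fold change of 0.22. Their edgeR adjusted p-values lay between 0.355 and 0.400, so none is separated from the spread between libraries once all genes are counted.

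The remaining 5 genes of the arm had an unadjusted p above 0.05. Fdps, which makes farnesyl diphosphate, had a log2 fold change of 0.20 (95% interval -0.02 to 0.42), which ran from 0.14 without Littermate 4 to 0.31 without Littermate 2 and was 0.08 with the Y-linked covariate described below. In Fdps 26.2% of the 50-base windows occur in other transcripts. Mvk, mevalonate kinase, and Lss, lanosterol synthase, both had 0.07. Dhcr7, the last reductase of the route to cholesterol, was at 109 ± 13.9 and 108 ± 8.86 CPM, a log2 fold change of -0.02. Srebf2, the regulator of the arm, was at 245, 191, 215 and 248 CPM in Littermates and 184, 194 and 231 CPM at the lowest, median and highest Experimental library, a log2 fold change of -0.18 (SE 0.09, edgeR adjusted p = 0.441). With a correction for GC content Srebf2 had -0.07, Mvd 0.34 and Mvk 0.15. The mRNA of the regulator stood lower in Experimental libraries while 10 of the other 11 genes of the arm stood higher, and neither difference passed the adjusted test. Srebf2 mRNA is not its processed, active protein, which was not measured.

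Summed over the 12 genes, the sterol arm stood at 1693, 1729, 1792 and 1702 CPM in Littermates 1 to 4. Among Experimental libraries, 5 lay between 1893 and 2092 CPM, above every Littermate, and Experimental 6 lay at 1671 CPM, below every Littermate. Experimental 6 was the lowest of its group in 12 of 12 sterol genes, against 20.0% of all tested genes. The count of 7 sterol genes below an unadjusted p of 0.05 became 8 without Experimental 6, 3 without Littermate 4, 4 without Experimental 5 and 1 without the 2 deepest libraries. The median log2 fold change of the arm was 0.25, 0.17, 0.17 and 0.18 in the same order, against 0.21 with all libraries, and the share of all genes higher at that p was 4.52%, 2.72%, 2.66% and 2.23%. Without Littermate 2 and Experimental 6 together, Fdft1 (log2 fold change 0.43, edgeR adjusted p = 0.0187) and Fdps (0.36, adjusted p = 0.0312) passed, in a comparison where 3.34% of all genes passed. In both genes Littermate 2 was the highest Littermate and Experimental 6 the lowest Experimental library. Leaving out this pair therefore took away the overlap of the groups in these genes, and the passing values rest on that choice. These 2 libraries were also those whose removal alone raised the number of all genes passing most. That number was 343 without Littermate 2 and 28 without Experimental 6, against 3 with all libraries. The 4 Y-linked genes of the files summed to 229 to 301 CPM in Littermates and 282 to 339.5 CPM in Experimental libraries. Of the 6 Experimental libraries 4 lay above every Littermate. Y-linked RNA was thus present in all 10 libraries, and its summed level does not sort the libraries into male and female. A covariate made from it is not a label of sex. It also partly follows the groups, so the 2 cannot be fully told apart in that fit. With that summed level as a covariate, 0 sterol genes were below an unadjusted p of 0.05, and the median of the arm was 0.13. The share of all genes below that p was then 1.93% higher and 3.89% lower, and the covariate's part in the result was not tested.

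**Figure D2:**
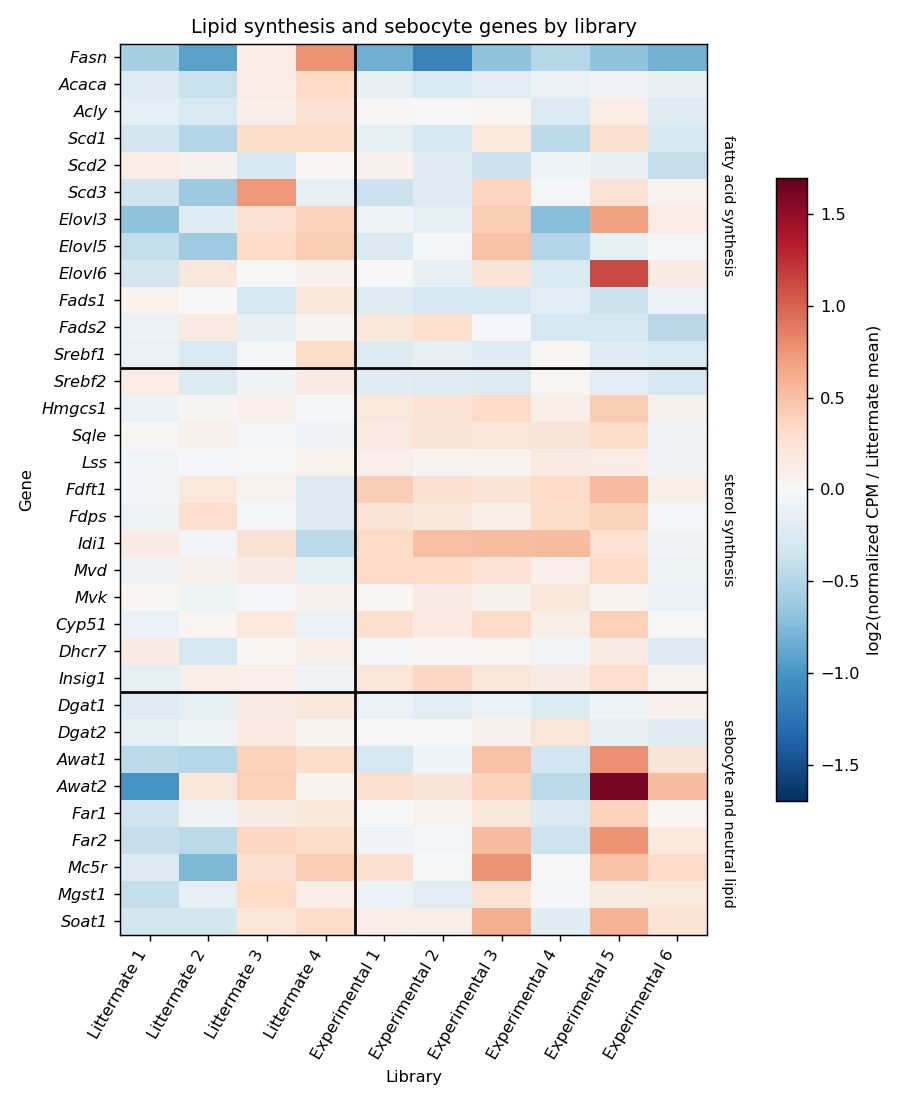
Each cell of the map shows, for 1 of the 33 genes and 1 of the 10 libraries, the log2 ratio of the normalized CPM to that gene's Littermate mean (red above, blue below). Experimental 6 is the lowest Experimental library in 12 of 12 sterol genes, and most sebocyte genes are low in Littermates 1 and 2 and Experimental 4.

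Promoter sequences are shown for the sterol genes since SREBP-2, with NF-Y and Sp1, is known to act on promoters of this pathway. The RefSeq promoter table (GRCm38.p6, the build family of mm10) held 23 of the 33 members, and 250 bases before each start were searched on both strands. Some starts differ from those of the genes as counted. The Acaca entry (84195238 to 84195437) lies inside the counted gene, which starts at 84129672. The Fasn entry (120824548 to 120824747) does not adjoin the counted gene, which ends at 120824178. In both fatty acid genes the bases just before the counted gene were not searched, which limits the motif counts of that arm. The letters CCAAT, bound by NF-Y, occurred in 9 of 9 sterol genes with an entry, in 3 of 8 fatty acid genes and in 3 of 6 sebocyte genes, against 37.5% of 27025 genes. The Sp1 letters GGGCGG occurred in 9 of 9 sterol genes, 3 of 8 fatty acid genes and 4 of 6 sebocyte genes, and in 35.4% of all genes with an entry. Both motifs were also frequent in the further lists described below, CCAAT in 11 of 14 sterol, 16 of 27 fatty acid and 6 of 10 sebaceous genes with an entry and GGGCGG in 12, 21 and 4 of them. The sterol regulatory element TCACNCCAC was present in 1 of the 9 sterol genes with an entry, Hmgcs1, 137 bases before the start, and in 1.22% of all genes. Below, 200 bases are given 5′ to 3′ on the strand of the gene, with the letters of the sterol regulatory element and of CCAAT or its complement ATTGG in capitals. Hmgcs1, Cyp51 and Idi1 stand for the sterol arm and Fasn for the fatty acid arm.
Hmgcs1, chr13:119690151-119690350, plus strand: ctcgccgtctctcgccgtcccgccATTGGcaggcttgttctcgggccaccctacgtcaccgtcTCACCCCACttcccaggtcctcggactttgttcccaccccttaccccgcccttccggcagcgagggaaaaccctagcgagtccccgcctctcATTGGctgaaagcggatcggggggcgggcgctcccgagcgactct
Cyp51, chr5:4104698-4104897, minus strand: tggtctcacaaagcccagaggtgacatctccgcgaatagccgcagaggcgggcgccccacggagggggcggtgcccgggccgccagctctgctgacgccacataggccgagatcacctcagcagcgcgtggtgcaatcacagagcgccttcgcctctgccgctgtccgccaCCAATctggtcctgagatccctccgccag
Idi1, chr13:8885406-8885605, plus strand: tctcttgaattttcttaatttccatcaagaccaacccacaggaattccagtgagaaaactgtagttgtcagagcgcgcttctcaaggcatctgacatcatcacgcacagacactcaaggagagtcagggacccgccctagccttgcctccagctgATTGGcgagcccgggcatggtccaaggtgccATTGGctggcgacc
Fasn, chr11:120824548-120824747, minus strand: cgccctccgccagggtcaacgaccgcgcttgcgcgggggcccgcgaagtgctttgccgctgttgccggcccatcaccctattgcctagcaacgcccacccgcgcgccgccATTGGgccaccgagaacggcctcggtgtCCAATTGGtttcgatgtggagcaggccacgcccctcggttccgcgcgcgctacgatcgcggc
In Fasn a pair of the matches share bases on opposite strands. A match is a string of letters, not a measured binding site.

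Of 20 further genes of sterol synthesis, uptake and export, 15 had a log2 fold change above 0, with a median of 0.08. At an unadjusted p under 0.05, 4 of the 20 were higher and 1 lower, beside 3.65% and 8.10% of all genes. The lowest p belonged to Msmo1, a sterol demethylation enzyme, at 164 ± 21.6 CPM (SD) over 4 Littermates and 211 ± 41.6 CPM (SD) over 6 Experimental libraries, with log2 fold change 0.37 and an edgeR adjusted p of 0.314. Insig2, the partner of Insig1 in sterol sensing, followed at 74.0 ± 9.37 and 86.2 ± 7.67 CPM, with log2 fold change 0.22 and an edgeR adjusted p of 0.345.

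The fatty acid arm was more uneven between Littermates than the sterol arm. Fasn, the fatty acid synthase that builds palmitate (chromosome 11, 120805940 to 120824178), was at 651, 515, 1049 and 1641 CPM in Littermates 1 to 4 and at 439, 576 and 686 CPM at the lowest, median and highest Experimental library. The groups overlapped, since Littermates 1 and 2 lay inside the Experimental range and Littermates 3 and 4 above it. The coefficient of variation was 52.4% in Littermates and 14.2% in Experimental libraries. The log2 fold change was -0.76 (SE 0.28, 95% interval -1.38 to -0.14, edgeR adjusted p = 0.328), and it ran from -0.97 without Littermate 2 to -0.36 without Littermate 4 and was -0.33 with the Y-linked covariate. The median of the arm, -0.08, was 0.00 without Littermate 4 and -0.17 without Littermate 2.

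Fads1, the delta-5 desaturase that makes polyunsaturated fatty acids, was the other gene of the arm below an unadjusted p of 0.05. It stood at 43.1, 41.1, 34.1 and 47.5 CPM in Littermates and 32.1, 34.6 and 38.5 CPM at the lowest, median and highest Experimental library. Every Experimental library was below the Littermate mean, and 3 of 6 were below every Littermate. Its log2 fold change was -0.25 (SE 0.09, 95% interval -0.44 to -0.06, edgeR adjusted p = 0.302), and it ran from -0.32 without Littermate 3 to -0.16 without Littermate 4. Srebf1, the regulator of the arm, was at 142, 128, 151 and 190.0 CPM in Littermates and 128, 131 and 155 CPM at the lowest, median and highest Experimental library. Its log2 fold change of -0.18 (SE 0.10, edgeR adjusted p = 0.509) became -0.25 without Littermate 2, -0.04 without Littermate 4 and -0.05 with a correction for GC content, which is 58.4% in Srebf1.

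The 2 enzymes that feed palmitate synthesis differed less. Acly, which releases acetyl-CoA from citrate, was at 426 ± 69.8 CPM (SD) over 4 Littermates and 415 ± 40.1 CPM (SD) over 6 Experimental libraries. Acaca, acetyl-CoA carboxylase 1, was at 119 ± 27.1 and 107 ± 4.95 CPM, a log2 fold change of -0.15 (95% interval -0.39 to 0.10), and it ran from -0.25 without Littermate 2 to 0.00 without Littermate 4. In Acaca 30.4% of 50-base windows also occur elsewhere in the annotated transcripts, so its counts are less certain.

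The stearoyl-CoA desaturases, which introduce the first double bond, came in very different amounts. Per length of transcript, Scd1 was the most abundant of the 33 genes at a mean of 619.7 RPKM over the 10 libraries, against 35.0 RPKM for Scd2 and 1.01 RPKM for Scd3. Scd1 was at 2521, 2201, 3871 and 3881 CPM in Littermates and 2298, 2688 and 3756 CPM at the lowest, median and highest Experimental library. Its log2 fold change was -0.10 (95% interval -0.50 to 0.30), Scd2 had -0.17 and Scd3 0.03. Between 3.97% and 6.57% of the 50-base windows of these 3 related genes are shared, mostly with each other.

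The elongases and the other desaturase also had intervals that span 0. Elovl3, an elongase typical of sebaceous glands and brown fat, was at 130 ± 40.7 and 141 ± 46.0 CPM, with a log2 fold change of 0.12 (95% interval -0.53 to 0.76). Elovl6, which lengthens palmitate to stearate, had 0.26 (95% interval -0.29 to 0.82), with 968 CPM in Experimental 5 and 371 to 516 CPM in the other 5. Without Experimental 5 the log2 fold change of Elovl6 was 0.01. Elovl5, an elongase of polyunsaturated fatty acids, had -0.04, and Fads2, the delta-6 desaturase, had -0.06.

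Adipocyte markers, like Fasn, were highest in Littermates 3 and 4. The 16 adipocyte markers, none at 0 over the 10 libraries together, summed to 1200.0, 1092, 2315 and 2626 CPM in Littermates 1 to 4. In Experimental libraries they summed to 1465 to 1908 CPM. Littermate 4 was the highest Littermate in 14 of 16 adipocyte markers and in 8 of 12 fatty acid genes, against 27.9% of all tested genes. High values in these Littermates were not particular to adipocyte markers. Among the 9 sebocyte genes the highest Littermate was number 3 in 5 and number 4 in 4, against 21.7% and 27.9% of all tested genes. The part of adipocyte RNA in the fatty acid values was not tested. Among 26 tested genes of a further list for fatty acid and triglyceride synthesis, 12 lay above 0 and 14 below, with a median log2 fold change of -0.05. At an unadjusted p under 0.05, 1 of the 26 was higher and 2 lower, beside the same 3.65% and 8.10%. Lpin1, a phosphatidate phosphatase of triglyceride synthesis, was at 84.8 ± 22.2 CPM (SD) over 4 Littermates and 65.6 ± 6.89 CPM (SD) over 6 Experimental libraries, with log2 fold change -0.37 and an edgeR adjusted p of 0.328. Elovl7, an elongase of saturated fatty acids, was at 228 ± 15.3 and 263 ± 26.4 CPM, with log2 fold change 0.21 and an edgeR adjusted p of 0.346.

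**Figure D3:**
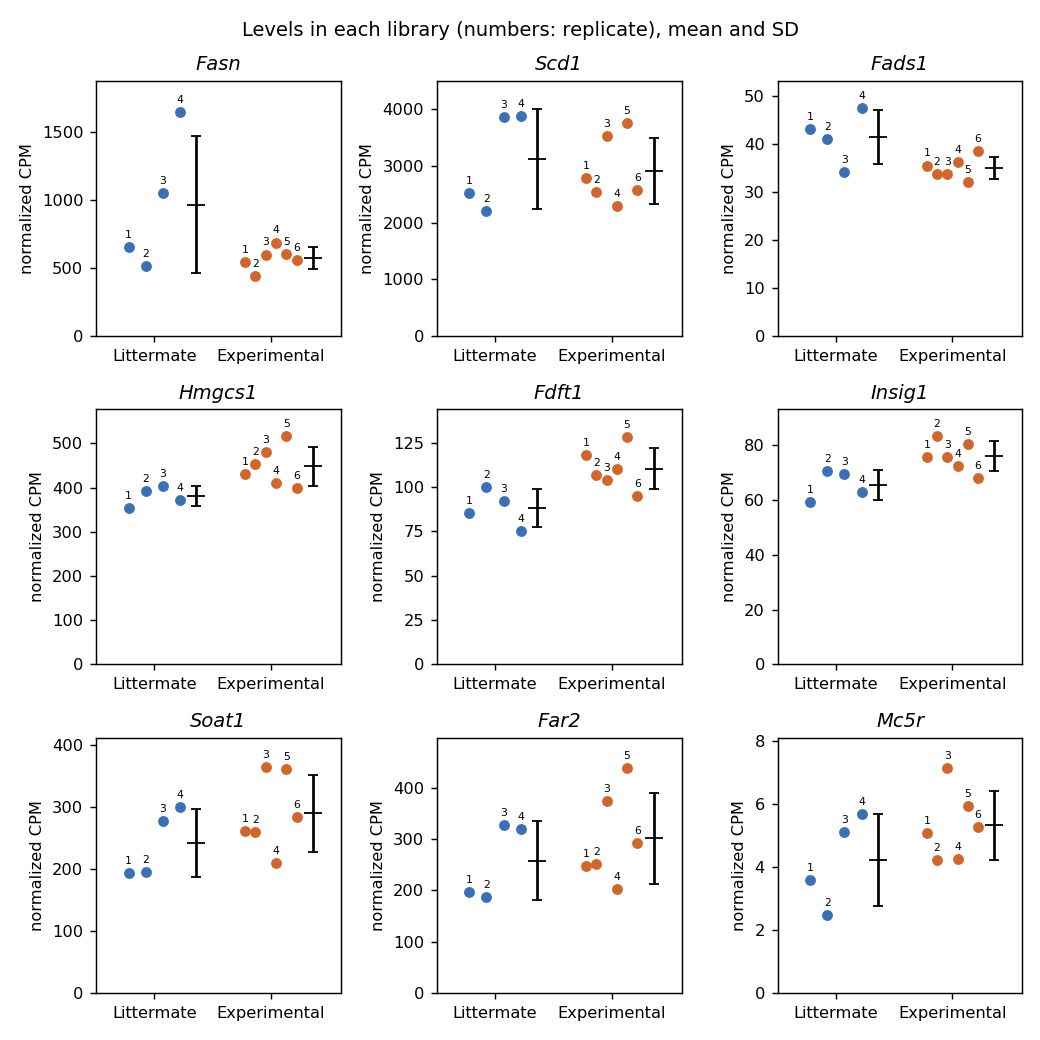
Normalized CPM of selected genes in each of the 4 Littermate and 6 Experimental libraries (points numbered by replicate), with the group mean (line) and SD (bars). Fasn reaches 1641 CPM in Littermate 4, while Hmgcs1, Fdft1 and Insig1 have 5 of 6 Experimental libraries above every Littermate.

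In the sebocyte arm, the lowest p belonged to Mc5r, the melanocortin receptor that promotes sebum secretion. It was at 3.60, 2.49, 5.12 and 5.69 CPM in Littermates and 4.24, 5.20 and 7.14 CPM at the lowest, median and highest Experimental library. All 6 Experimental libraries were above the Littermate mean, yet the groups overlapped. The log2 fold change was 0.34 (SE 0.22, 95% interval -0.12 to 0.81, edgeR adjusted p = 0.574), and it ran from 0.16 without Littermate 2 to 0.53 without Littermate 4 and was 0.23 without Experimental 3.

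Soat1, which esterifies cholesterol for storage, was at 194, 195, 277 and 299.7 CPM in Littermates and 209, 273 and 365 CPM at the lowest, median and highest Experimental library. Its log2 fold change was 0.26 (SE 0.18, 95% interval -0.12 to 0.65, edgeR adjusted p = 0.599), and it ran from 0.18 without Littermate 1 or 2 to 0.40 without Littermate 4. The wax ester enzymes covered a wide range of levels. Awat2, a wax synthase, was at 3.21, 7.48, 8.60 and 6.78 CPM in Littermates and 4.74, 8.24 and 19.9 CPM at the lowest, median and highest Experimental library. Its log2 fold change of 0.54 had a 95% interval of -0.30 to 1.39 (edgeR adjusted p = 0.618), the widest of the 33 genes. It was 0.24 without Experimental 5, 0.33 without Littermate 1, 0.71 without Littermate 3 and 0.11 with the Y-linked covariate.

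Awat1, the related wax synthase, was far more abundant per length, at 72.1 RPKM over all libraries against 3.96 RPKM for Awat2, and had a log2 fold change of 0.19, from 0.05 without Experimental 5 to 0.35 without Littermate 3. Far2, which reduces fatty acyl-CoA to the alcohols of wax esters, had 0.23 (95% interval -0.32 to 0.77), from 0.09 without Experimental 5 to 0.37 without Littermate 3, and Far1 had 0.09. Exons of genes on the other strand overlap 17.5% of the exon bases of Far2. The triglyceride enzymes Dgat1 and Dgat2 had -0.10 and 0.00, with Dgat2 at a mean of 147 RPKM, second to Scd1. Mgst1, a microsomal glutathione transferase found in sebocytes, had 0.05.

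Levels of the sebocyte genes differed between libraries of both groups. Summed over the 9 genes, Littermates 1 to 4 stood at 1014, 1062, 1481 and 1449.8 CPM, and Experimental libraries ran from 1158 to 1649 CPM. The lowest Littermate was Littermate 1 in 6 and Littermate 2 in 3 of the 9 genes, and Experimental 4 was lowest of its group in 6. The median log2 fold change of 0.19 was 0.07 without Littermate 1 or 2, 0.34 without Littermate 3, 0.33 without Littermate 4 and 0.05 without Experimental 5. Of 15 tested genes of a further sebaceous gland list, 11 lay above 0, with a median of 0.10. At an unadjusted p under 0.05, 1 of the 15 was higher, beside 3.65% of all genes. Apoc1, an apolipoprotein, was at 68.4 ± 6.41 CPM (SD) over 4 Littermates and 80.0 ± 6.00 CPM (SD) over 6 Experimental libraries, with log2 fold change 0.23 and an edgeR adjusted p of 0.281. Fabp5, a fatty acid binding protein of epidermis and sebocytes, was at 1296 ± 217 and 1532 ± 196 CPM, with log2 fold change 0.24 and an edgeR adjusted p of 0.468.

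**Figure D4:**
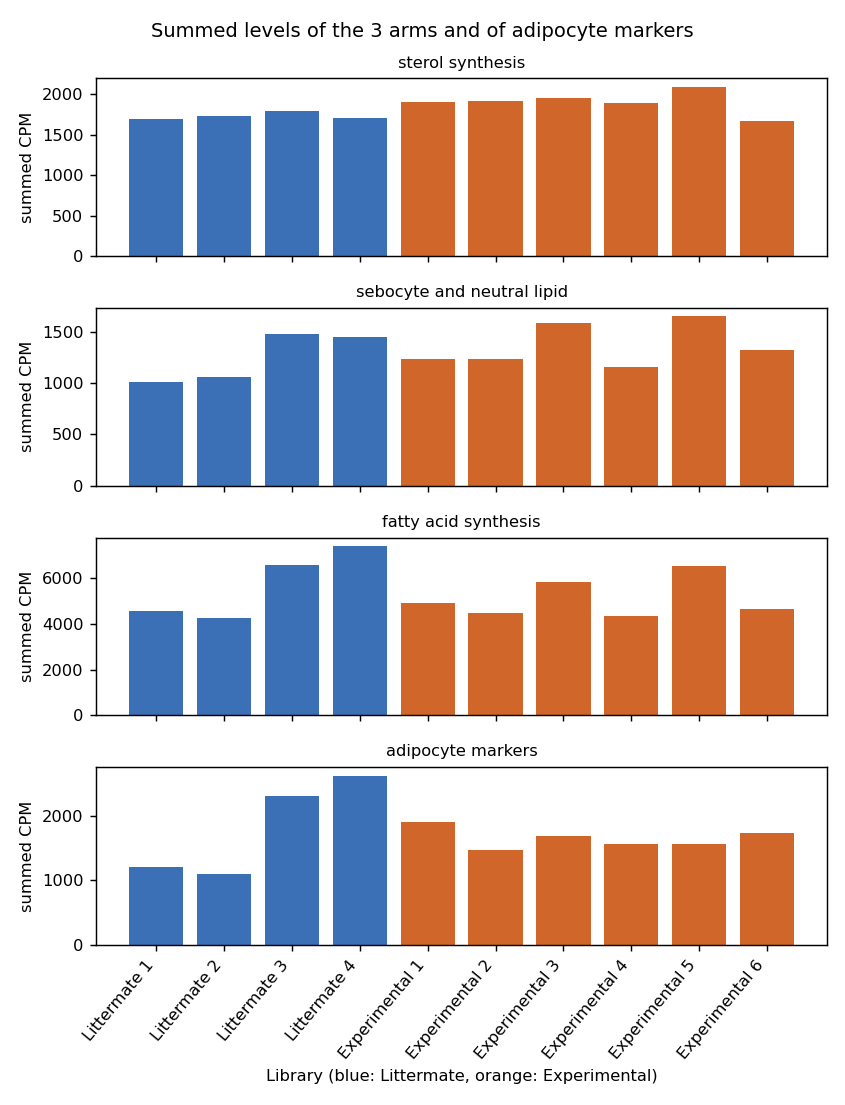
Summed normalized CPM of each arm and of the adipocyte markers in each library (bars, Littermates in blue and Experimental libraries in orange). The sterol arm spans 1671 to 2092 CPM over all 10 libraries, while the adipocyte markers span 1092 to 2626 CPM, with Littermates 3 and 4 highest.

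Other cell types were read from their markers as well. The 10 skeletal muscle markers summed to 3168 to 6819 CPM in Littermates and 3498 to 4776 CPM in Experimental libraries. The 8 Schwann cell markers summed to 297 to 383 and 228 to 325 CPM. The 8 macrophage markers summed to 1509 to 1774 and 1192 to 1904 CPM. Of the 6 Experimental sums, 3 lay below every Littermate for Schwann cells, and 4 below and 1 above for macrophages. Log2 fold changes were below 0 in 8, 7 and 6 markers of the 3 lists. At an unadjusted edgeR p under 0.05, 3, 1 and 1 markers were lower and 0 higher, beside 8.10% and 3.65% of all genes. None passed the adjusted threshold. The 9 keratinocyte markers summed to 31535 ± 2242 CPM (SD) over 4 Littermates and 31376 ± 2798 CPM (SD) over 6 Experimental libraries. Most of that sum was Krt14, and 1 further gene of this list of 10 was not found by symbol. Log2 fold changes of the 9 ran from -0.57 to 0.11, with 6 above 0 and 3 below. Of these, 1 was lower at an unadjusted edgeR p under 0.05. No marker of these lists was at 0 over the 10 libraries together, and their part in the lipid genes' values was not tested.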

How the data were processed

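RNA from whole ear skin was depleted of ribosomal RNA and sequenced as single 50-base reads, per the labels' protocols. The submitters' processing notes name STAR 2.0.4b, Subread featureCounts 1.4.5 and mm10. The authors deposited, per the file headers, a count, a CPM and an RPKM value per gene and library; the deposited CPM equals count over total and the deposited RPKM equals CPM per kilobase. Symbols were matched for 97.3% of gene IDs.

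Counts were tested with edgeR 4.0.16 (R 4.3.3; TMM normalization, filter by expression, robust quasi-likelihood test), Experimental against Littermate, with Benjamini-Hochberg adjustment over 16830 genes and a threshold of 0.05. Levels are CPM after TMM scaling (factors 0.984 to 1.02). RPKM was used only to compare levels between genes. Common biological variation was 12.8%. Alternatives were 23 further fits, among them DESeq2 1.42.0 and limma 3.58.1, other scalings and filters, a GC correction, a Y-linked covariate, a replicate block and leaving out libraries. All members are named; the 3 with the lowest p in an arm have the value of each Littermate and the lowest, median and highest Experimental value, and each further list names its 2 genes of lowest p. Members and lists were chosen with earlier results of these data known. Intervals cover 95%. Each library was counted once. Libraries of a group differed by more than sampling noise, which does not show that each came from a separate mouse.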

Additional observations from a re-analysis of the deposited data

Results flagged for a closer look

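A library was singled out when its gap to the nearest other library of its group, divided by the group's range, exceeded Dixon's 95% critical value for a group of that size, which is 0.625 for the 6 Experimental libraries and higher for the 4 Littermates. Of 66 groups examined, 4 met their own limit, all Experimental, and chance singles out about 1 in 20 groups. Elovl6 was at 968 CPM in Experimental 5, where the other 5 lay between 371 and 516 CPM. Awat2 was at 19.9 CPM in the same library, against 4.74 to 9.48 CPM. Srebf1 was at 155 CPM in Experimental 4, against 128 to 136 CPM, and Srebf2 was at 231 CPM in that library, against 184 to 196 CPM.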

How the results depend on the processing

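Over the 33 genes and 23 alternatives, 37 of 759 log2 fold changes changed sign, in 9 genes, counted on values that round to other than 0.00. Dgat2, reported at 0.00, is outside that count and ran from -0.05 without Littermate 1 to 0.08 with the GC correction. No member passed the adjusted threshold except without Littermate 2 and Experimental 6, where 2 passed. The 3 genes passing among all genes became 78 with no filter, 232 with DESeq2, 60 with voom quality weights and 563 without Littermate 2 and Experimental 6, and 3 to 343 when 1 library was left out (343 without Littermate 2, 28 without Experimental 6, 8 without Littermate 3). With a replicate block the count was 67, with 0 members. Numbers 5 and 6 occur only among Experimental libraries, so in that fit they add nothing to the group difference. It therefore compares numbers 1 to 4 of both groups. Deviations from the group mean in same-numbered libraries correlated at -0.02 to 0.09. The labels do not say whether equal numbers pair samples, and these values do not settle it. The 7 higher sterol genes became 0 with the Y-linked covariate, 1 without the 2 deepest libraries, 8 without Littermate 2 and Experimental 6, and 3 to 8 when 1 library was left out. The 2 lower fatty acid genes became 0 with the Y-linked covariate, without Littermate 4 and without the 2 deepest libraries, and 4 without Littermate 2. The cause was not tested.

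Signs changed with the Y-linked covariate for Acly (0.06), Scd3 (-0.23), Elovl5 (0.09), Elovl6 (-0.06), Fads2 (0.07), Dhcr7 (0.04) and Mgst1 (-0.03). With the replicate block they changed for Elovl3 (-0.06), Elovl5 (0.01), Elovl6 (-0.03), Fads2 (0.05) and Dhcr7 (0.01). That fit also takes Experimental 5 and 6 out of the group difference, and the 2 changes cannot be told apart there. With quality weights Scd3 had -0.09 and Fads2 0.07, with the GC correction Dhcr7 had 0.02, and without the 2 deepest libraries Scd3 had -0.01. Without Littermate 2 and Experimental 6, Scd3 had -0.13, Fads2 0.08 and Mgst1 -0.02. Leaving out 1 library gave -0.12 to 0.07 for Acly, -0.23 to 0.04 for Scd1, -0.13 to 0.40 for Scd3, -0.05 to 0.28 for Elovl3, -0.20 to 0.15 for Elovl5, -0.14 to 0.01 for Fads2, -0.10 to 0.04 for Dhcr7 and -0.06 to 0.18 for Mgst1. Elovl6 ran from 0.01 to 0.35, and with the replicate block Awat2 had 0.17. Counts were fewest for Scd3, Idi1, Mc5r, Fads2 and Awat2, from 683 to 1580 over all libraries.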

Other observations

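Thrsp, Mlxipl, Acacb and Lep, outside the 33 genes, were highest among Littermates in numbers 3 and 4, as Fasn was. Other lipogenic regulators varied less between Littermates, with a coefficient of variation of 12.5% for Nr1h2 and 14.0% for Mid1ip1. Thrsp, a lipogenic co-regulator, was at 19.2, 21.8, 70.5 and 77.0 CPM in Littermates 1 to 4 and 24.2 to 37.1 CPM in Experimental libraries. Mlxipl, the carbohydrate-responsive transcription factor ChREBP, was at 5.01, 8.28, 13.0 and 15.0 CPM and 6.84 to 9.36 CPM. Acacb, the mitochondrial acetyl-CoA carboxylase, was at 107, 94.4, 165 and 209 CPM and 83.9 to 135 CPM. Lep, the adipocyte hormone leptin, was at 9.70, 9.97, 25.2 and 27.1 CPM and 18.8 to 34.8 CPM, with a log2 fold change of 0.50 where 13 of 16 adipocyte markers had one below 0. These genes were chosen after their values were seen, and none passed edgeR's adjusted threshold.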
